A study of Mus musculus with 24 samples.

Results

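Dyrk1a, Rcan1, the subunits of calcineurin and the NFAT transcription factors were compared between 2N and Ts1Cje mouse brain. Probe sets were taken from 2 Affymetrix designs, array A and array B, where the platform annotation gave 1 of 10 gene symbols: Dyrk1a, Rcan1, Ppp3ca, Ppp3cb, Ppp3cc, Ppp3r1, Nfatc1, Nfatc2, Nfatc3 and Nfatc4. This gave 25 of 24833 probe sets, and each of the 10 genes had at least 1. A filter on dim probe sets left 19 of the 25 for testing, among 18624 tested in all.

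The 2N mice carry the normal chromosome complement. Ts1Cje mice, a model of Down syndrome, are known to carry an additional copy of mouse chromosome 16 distal to Sod1, joined to chromosome 12, with Sod1 itself inactive on that copy. Each genotype had 6 samples on each array design, of total brain RNA, and the labels give neither strain, age, sex nor brain region. Both designs carry the same sample numbers, so the 24 arrays may come from 12 RNA samples, which the labels do not state, and arrays A and B would then not be independent of each other. Nor do the labels say that the numbered samples came from separate animals, so p-values measure the spread between samples, which may be partly technical.

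Calcineurin is a phosphatase switched on by calcium and calmodulin. It removes phosphates from the cytoplasmic NFAT proteins, which then enter the nucleus and bind DNA, often beside AP-1 factors. Rcan1 binds calcineurin and restrains it, and Dyrk1a is a kinase that phosphorylates NFAT and primes it for further kinases that return it to the cytoplasm. In neurons calcineurin also acts on proteins of the synapse. Dyrk1a and Rcan1 lie in the part of chromosome 16 that is present in 3 copies in Ts1Cje, and the other 8 genes lie on other chromosomes.

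Rcan1 has 2 start sites in the RefSeq promoter table for GRCm38.p6, and the downstream start is known as an NFAT-responsive promoter. The 2 windows are shown because Rcan1 is at once a regulator and a target of this pathway, and the first Dyrk1a window is shown beside them. Each window runs from 250 bases before the start to 50 after it, 5′ to 3′. Capitals mark GGAAA on either strand (TTTCC on the other), the core letters of the NFAT element, and TGANTCA, the AP-1 element, whose reverse complement has the same form. No 2 marked matches overlap. They lie at chr16:92466120-92466419 on the minus strand (Rcan1 upstream), chr16:92400029-92400328 on the minus strand (Rcan1 downstream) and chr16:94569956-94570255 on the plus strand (Dyrk1a).
Rcan1 upstream: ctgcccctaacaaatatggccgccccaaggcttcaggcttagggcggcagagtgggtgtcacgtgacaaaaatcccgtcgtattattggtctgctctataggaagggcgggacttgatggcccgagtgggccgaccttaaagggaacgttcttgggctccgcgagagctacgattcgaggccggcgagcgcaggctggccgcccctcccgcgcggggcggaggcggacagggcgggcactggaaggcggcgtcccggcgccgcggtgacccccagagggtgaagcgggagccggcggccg
Rcan1 downstream: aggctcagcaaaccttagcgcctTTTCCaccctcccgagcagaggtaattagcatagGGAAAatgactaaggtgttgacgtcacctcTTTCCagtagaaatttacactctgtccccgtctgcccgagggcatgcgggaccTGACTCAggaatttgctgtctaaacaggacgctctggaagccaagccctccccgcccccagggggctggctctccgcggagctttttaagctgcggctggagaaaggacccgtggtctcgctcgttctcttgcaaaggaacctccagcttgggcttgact
Dyrk1a: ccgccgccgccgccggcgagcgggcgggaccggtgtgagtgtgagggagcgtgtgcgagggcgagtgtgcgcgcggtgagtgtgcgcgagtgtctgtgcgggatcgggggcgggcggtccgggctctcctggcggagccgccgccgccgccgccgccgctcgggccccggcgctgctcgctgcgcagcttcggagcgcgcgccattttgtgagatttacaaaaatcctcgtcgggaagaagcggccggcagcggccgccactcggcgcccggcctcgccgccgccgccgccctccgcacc

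The downstream Rcan1 window held 3 matches to GGAAA and 1 to TGANTCA, while the upstream window held 0 of both. Of all 32851 windows in the table, 61.3% held at least 1 GGAAA, 9.42% held 3 or more, and 7.81% held a TGANTCA. The Dyrk1a window shown held 0 of both, and the other 2 Dyrk1a windows held 1 and 2 GGAAA. Among the calcineurin and NFAT genes, GGAAA occurred 4 times in the Ppp3cb window, 3 times in that of Nfatc4, 3 and 1 times in the 2 of Nfatc2, 1 and 0 times in those of Nfatc3, and 0 times in that of Ppp3r1. These 12 windows belong to 7 of the 10 genes. Windows on chromosome 18, where Nfatc1 lies, were left out of these member counts, so Nfatc1 was not scanned. A match describes letters only. The Rcan1 probe set gives 1 value for the gene and was not assigned to either start here.

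Dyrk1a was called higher in Ts1Cje brain on 1 of its probe sets. On array A its brighter probe set had a lowest, median and highest normalised intensity of 66.3, 69.2 and 82.8 in 2N, and of 87.2, 106.6 and 119.7 in Ts1Cje. All 6 Ts1Cje samples lay above all 6 of 2N, as 0.193% of the probe sets of array A did, and 0.301% did not overlap in either direction. The mean rose from 70.9 ± 6.12 to 105.3 ± 10.9 (SD, n = 6), a log2 difference of 0.57 (SE 0.097, 95% interval 0.36 to 0.77), or 1.48-fold (limma adjusted p = 0.020). It was the 1 called probe set among the 11 of these genes tested on array A, where 0.0966% of all 9316 passed. The interval holds the 1.5-fold ratio of 3 copies to 2, which is 0.58 on the log2 scale. An exact permutation test, two-sided, gave p = 0.0022, its lower limit with 6 against 6 samples.

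The second Dyrk1a probe set was dimmer, with a mean of 16.6, and did not pass. It ran from 12.3 to 17.4 in 2N with a median of 14.7, and from 10.5 to 24.5 in Ts1Cje with a median of 18.7. Ts1Cje replicate 2 was the lowest of all 12 samples and the other 5 Ts1Cje samples lay above all of 2N. The log2 difference was 0.27 (SE 0.21, 95% interval −0.18 to 0.72, limma adjusted p = 0.99), and the interval holds both 0 and the 1.5-fold ratio. The differences of the Dyrk1a probe sets were 0.30 apart on the log2 scale, which an exact permutation test of their within-array ratio did not separate (p = 0.13, 0.22 adjusted over the 7 pairs of probe sets of 1 gene on 1 array). On the mean of both probe sets the Dyrk1a difference was 0.42 and did not pass (limma adjusted p = 0.99).

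The Dyrk1a call was close to the threshold. It was lost when 2N replicate 1, 2, 3, 4 or 6, or Ts1Cje replicate 3, 4 or 5 was left out, with log2 differences between 0.53 and 0.62 and limma adjusted p between 0.012 and 0.079 over all 12 such fits. It was also lost without the mean-variance trend (adjusted p = 0.11) and without normalisation between arrays (log2 difference 0.52, adjusted p = 0.9999, exact permutation p = 0.074), where 0 probe sets of the whole array passed.

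Rcan1, the calcineurin inhibitor, was represented by 1 probe set, on array A. Its lowest, median and highest normalised intensity were 95.9, 112 and 149.7 in 2N and 114, 165 and 183 in Ts1Cje. Ts1Cje replicate 6 lay within the range of 2N and the other 5 Ts1Cje samples lay above it. The 2N mean of 119 ± 21.9 compared with 159.6 ± 24.8 for Ts1Cje (SD, n = 6). The log2 difference of 0.42 (SE 0.13, 95% interval 0.15 to 0.69), or 1.34-fold, did not pass over all probe sets of the array (limma adjusted p = 0.99). Its exact permutation p alone was 0.019. Without Ts1Cje replicate 6 the difference was 0.51, with a limma adjusted p of 0.26. The interval holds the 1.5-fold ratio and not 0.

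A first principal component was taken for each array from the log2 values with each genotype's mean subtracted. On both arrays replicates 1 and 2 of both genotypes lay on 1 side of it and replicates 3 to 6 on the other side. This split was found in the data and not in the labels. Among replicates 3 to 6 the log2 difference of the brighter Dyrk1a probe set was 0.60 (exact permutation p = 0.029, the smallest possible) and that of Rcan1 was 0.39 (exact permutation p = 0.086). With replicates 1 and 2 alone they were 0.51 and 0.49, in a design whose exact p cannot go below 0.33. Both kept their direction in the 2 subsets. The dimmer Dyrk1a probe set did not, at 0.48 among replicates 3 to 6 and −0.14 among replicates 1 and 2. The subsets reuse the same samples. For the brighter Dyrk1a probe set 6 of 6 Ts1Cje samples lay above all of 2N, and for Rcan1 5 of 6 did. A kept direction, or the smallest possible p, in a subset was therefore largely set beforehand and is not separate evidence.

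**Figure D1:**
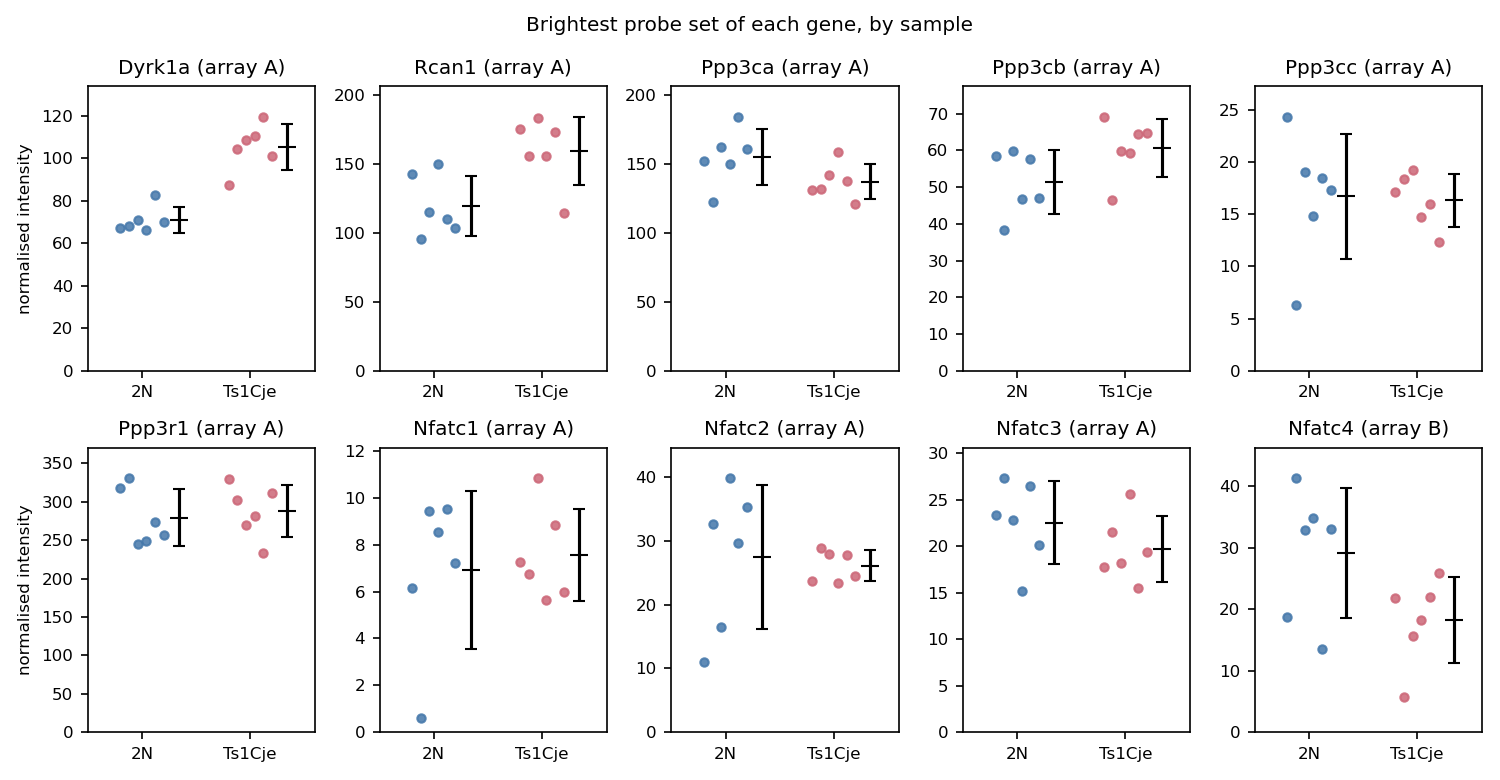
Normalised intensity (linear scale, from 0) of the probe set that represents each gene, its brightest on array A or, for Nfatc4, on array B. Points are the 6 samples of each genotype and black bars the mean ± SD. The 6 Ts1Cje samples of Dyrk1a lie above all 2N samples, 5 of 6 do so for Rcan1, and the groups of the 8 other genes overlap.

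Dyrk1a and Rcan1 were set beside the other trisomic genes of array A. Of the 38 tested probe sets of genes distal to Sod1, 36 were above 0, with a median log2 difference of 0.51. The brighter Dyrk1a probe set ranked 13 from the top, Rcan1 24 and the dimmer Dyrk1a probe set 30. Of these 38 probe sets 8, or 21.1%, passed, against 1 of the 9278 others, or 0.0108%. All 3 Dyrk1a and Rcan1 probe sets were above 0 and 1 of them passed. These 3 are themselves among the 38, which ran from −0.52 to 1.02. That range also holds the tested disomic members of array A, at −0.19 to 0.28, so lying inside it does not set trisomic genes apart.

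**Figure D2:**
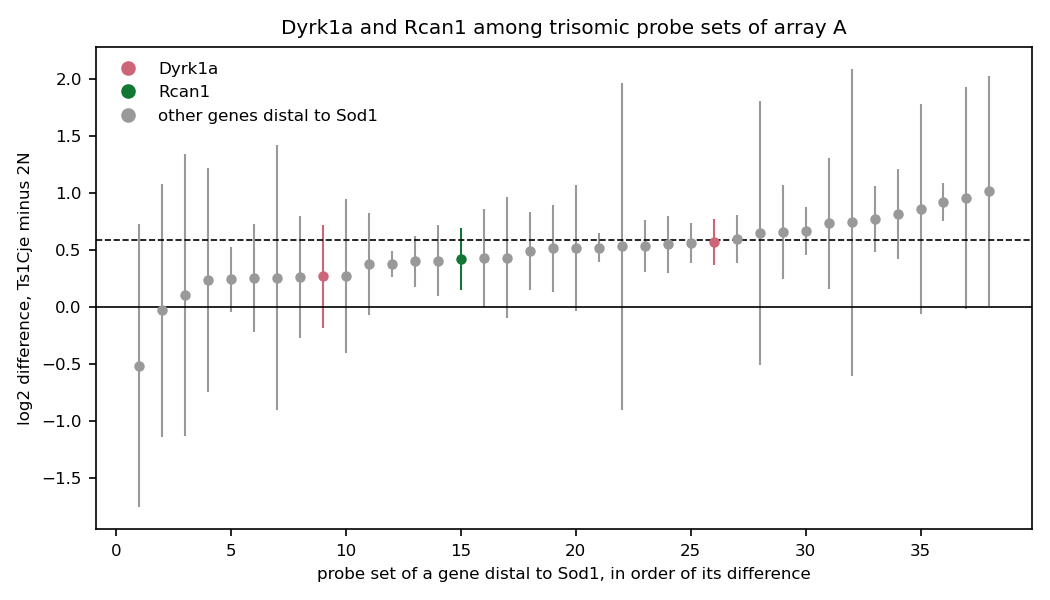
Log2 difference (Ts1Cje minus 2N) with its 95% limma interval for the 38 tested array A probe sets of genes distal to Sod1, ordered by size. Dyrk1a is red and Rcan1 green, the solid line is 0 and the dashed line the 1.5-fold ratio. Dyrk1a at 0.57 and 0.27 and Rcan1 at 0.42 lie within the spread of the other genes.

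Over the 12 samples of array A, the probe sets whose log2 values were most like those of Dyrk1a were Ttc3 (Pearson r = 0.96), Paxbp1 (0.94) and Son (0.90), out of 8375 searched, and all 3 lie in the trisomic part. Once each genotype's mean was subtracted, r was 0.70 for Ttc3, 0.57 for Paxbp1 and 0.074 for Son. For Rcan1 the most like were H2-DMa (r = 0.94), the trisomic Tmem50b (0.86) and Stc2 (0.85). With the genotype means subtracted these were 0.92, 0.73 and 0.73. H2-DMa, a gene of antigen presentation, differed by 0.25 (limma adjusted p = 0.99) and the dim Stc2 by 1.22 (adjusted p = 0.99), and both lie outside the segment. These are the highest of many correlations over samples that share a scale, and they are given as a description.

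The 8 disomic genes did not pass on either array (0 of 16 tested probe sets by limma, of which 1 had an unadjusted p under 0.05). The share of all probe sets that passed was 0.0966% for array A and, of 9308 tested, 0.0645% for array B, where the segment genes passed in 16.2%. Unadjusted p-values below 0.05 made up 3.63% (array A) and 4.24% (array B). Groups without overlap occurred in 0 of the 16, beside 0.301% and 0.247% over the arrays. The median log2 difference was 0.056 over the 8 tested disomic probe sets of array A and 0.087 over the 8 of array B, beside −0.00424 and −0.00346 over all probe sets. Intervals of 15 of the 16 held 0, and those of 9 lay below the 1.5-fold ratio. In whole brain RNA, fewer cells of a type and less RNA per cell cannot be told apart.

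**Figure D3:**
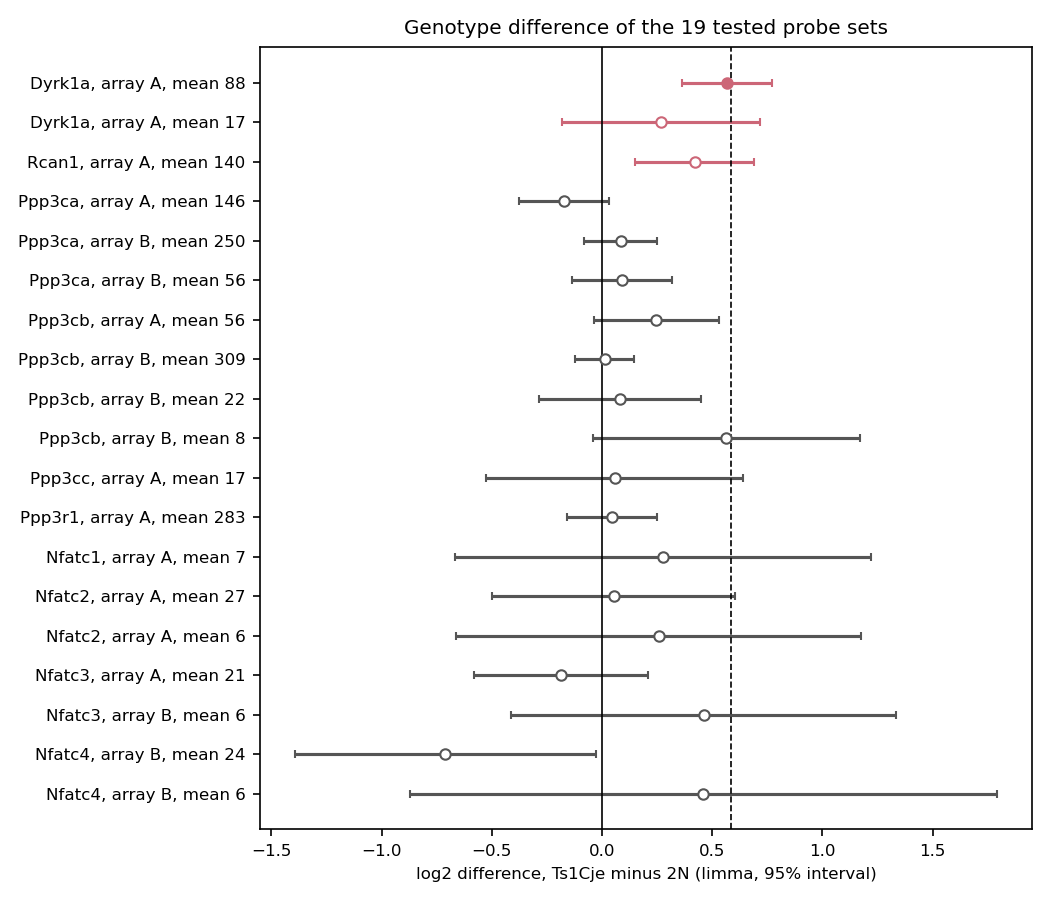
Log2 difference (Ts1Cje minus 2N) and 95% limma interval of the 19 tested probe sets, each labelled with its gene, array and mean normalised intensity. The filled point passed an adjusted p of 0.05, red marks the trisomic genes, the solid line is 0 and the dashed line the 1.5-fold ratio. The brighter Dyrk1a probe set at 0.57 is the filled one, and the intervals tend to widen as the mean intensity falls.

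Among the catalytic subunits of calcineurin, Ppp3ca, the main one in neurons, had probe sets that lay on either side of 0. On array A its lowest, median and highest intensity were 122, 156 and 184 in 2N and 121, 135 and 158 in Ts1Cje. The groups overlapped, with 3 of the 2N samples above the highest Ts1Cje sample. The mean was 155 ± 20.3 and 137 ± 12.7 (SD, n = 6), with a log2 difference of −0.17 (SE 0.097, 95% interval −0.38 to 0.033, limma adjusted p = 0.99, exact permutation p = 0.097).

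Both array B probe sets of Ppp3ca were above 0. The brighter ran from 212 to 269.9 in 2N and from 214 to 273 in Ts1Cje, with medians of 241 and 264. Its log2 difference was 0.084 (SE 0.079, 95% interval −0.083 to 0.25), and that of the dimmer (mean 56.5) was 0.090 (SE 0.11). All 3 Ppp3ca intervals held 0 and lay below the 1.5-fold ratio. The arrays were normalised apart, so the array A and array B differences were not tested against each other.

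Ppp3cb, the other catalytic subunit common in brain, was measured by 4 probe sets. On array A its intensity ran from 38.4 to 59.9 in 2N with a median of 52.4, and from 46.4 to 69.2 in Ts1Cje with a median of 62.1. In Ts1Cje 3 of 6 samples lay above all of 2N. The log2 difference was 0.25 (SE 0.13, 95% interval −0.037 to 0.53, limma adjusted p = 0.99, exact permutation p = 0.0801).

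The brightest Ppp3cb probe set, on array B, gave the narrowest interval of all members. It ran from 292 to 321 in 2N and from 283 to 331 in Ts1Cje, with means of 308 ± 12.03 and 310.3 ± 17.4 (SD, n = 6). The log2 difference was 0.011 (SE 0.063, 95% interval −0.12 to 0.14). The other 2 array B probe sets differed by 0.083 (mean 21.6, SE 0.18) and 0.56 (mean 8.21, SE 0.29). The dimmest and the brightest array B probe sets differed in their response by 0.55, which did not pass (exact permutation p = 0.069, 0.22 adjusted over 7 pairs).

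Ppp3cc, the catalytic subunit best known from testis, was dim, with a mean of 16.5. It ran from 6.29 to 24.3 in 2N and from 12.3 to 19.2 in Ts1Cje, with medians of 17.9 and 16.5. 2N replicate 2 was the lowest sample and 2N replicate 1 the highest, and all Ts1Cje samples lay between them. The log2 difference was 0.059 (SE 0.28, limma adjusted p = 0.998), and −0.20 without 2N replicate 2.

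Ppp3r1, the calcium-binding regulatory subunit, was bright on array A. Its lowest, median and highest intensity were 245, 265 and 331 in 2N and 233, 292 and 329 in Ts1Cje. The groups overlapped almost fully. The means were 279 ± 36.8 and 288 ± 34.1 (SD, n = 6), and the log2 difference was 0.046 (SE 0.097, 95% interval −0.16 to 0.25, limma adjusted p = 0.99). It was −0.033 without normalisation between arrays.

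The trisomic genes were then compared with Ppp3ca through the log2 ratio of 2 genes within each array A sample, in 3 pairs. The Dyrk1a to Ppp3ca ratio was higher in Ts1Cje by 0.74 (SD 0.14 in 2N and 0.15 in Ts1Cje, n = 6), or 1.67-fold, and 6 of 6 Ts1Cje samples lay above all of 2N (exact permutation p = 0.0022, 0.0065 adjusted over 3 pairs). The Rcan1 to Ppp3ca ratio was higher by 0.59 (SD 0.30 and 0.21), with 4 of 6 samples above all of 2N (exact permutation p = 0.0087, 0.013 adjusted). The Dyrk1a to Rcan1 ratio differed by 0.15 (SD 0.32 and 0.28, exact permutation p = 0.42), which does not show that the 2 genes changed alike.

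These ratios include the array A difference of Ppp3ca of −0.17, and the array B probe sets of Ppp3ca lay above 0. On array A Ppp3ca was the 1 calcineurin subunit of 4 below 0, which raises both ratios. Like the other members, it was chosen with earlier results of these data known. The ratios reuse the single-gene values and are not separate evidence. With other subunits in the denominator, a choice made after the values were seen, the ratios were smaller and none passed when adjusted over these 4 pairs. The Dyrk1a ratio was higher by 0.52 to Ppp3r1 (exact permutation p = 0.013, 0.052 adjusted) and by 0.32 to Ppp3cb (p = 0.065, 0.12 adjusted). The Rcan1 ratio was higher by 0.38 to Ppp3r1 (exact permutation p = 0.089, 0.12 adjusted) and by 0.17 to Ppp3cb (p = 0.32 before and after adjustment). The result of the ratio test therefore depends on the subunit used.

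**Figure D4:**
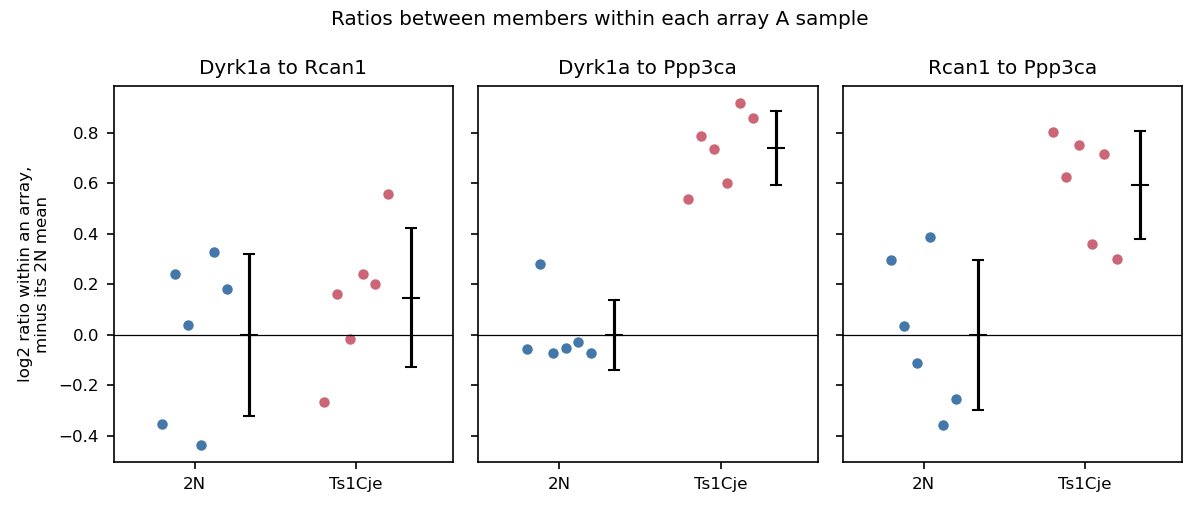
Log2 ratio of 2 genes within each array A sample, with the mean of the 2N samples set to 0, so that only differences between genotypes can be read. Points are the 6 samples of each genotype and bars the mean ± SD. All 6 Ts1Cje samples lie above 2N for Dyrk1a to Ppp3ca, 4 of 6 for Rcan1 to Ppp3ca and 1 of 6 for Dyrk1a to Rcan1.

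The NFAT genes had 13 probe sets, of which 7 were tested. The other 6 were dim, with means between 2.02 and 3.42 and single values between 0.225 and 11.5. Tested probe sets had a median intensity of 30.8 for array A and 16.1 for array B. All 4 tested NFAT probe sets of array A lay below its median. On array B the brightest Nfatc4 probe set lay above the median, at 23.7, and the other 2 lay below it. The 95% intervals of 5 of the 7 held the 1.5-fold ratio.

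Nfatc4, the NFAT gene with the largest difference, lay below 2N in Ts1Cje on its brightest probe set (array B). Its lowest, median and highest intensity were 13.6, 33.0 and 41.4 in 2N and 5.84, 20.1 and 26.0 in Ts1Cje. The groups overlapped, with 4 of the 2N samples above all of Ts1Cje and 2N replicates 1 and 5 inside the Ts1Cje range. The log2 difference of −0.71 (SE 0.32, 95% interval −1.39 to −0.029) did not pass (limma adjusted p = 0.996, exact permutation p = 0.11). It was −0.41 without Ts1Cje replicate 2, −1.32 among replicates 1 and 2, and −0.13 on the mean of both tested Nfatc4 probe sets. The dimmer Nfatc4 probe set (mean 5.54) was at 0.46 (SE 0.63), and the 2 did not differ by the test (exact permutation p = 0.082, 0.22 adjusted over 7 pairs).

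The brightest Nfatc2 probe set spread more widely in 2N than in Ts1Cje. It ran from 11.1 to 39.8 in 2N with a median of 31.1, and from 23.4 to 28.9 in Ts1Cje with a median of 26.1. All 6 Ts1Cje samples lay inside the range of 2N. The log2 difference was 0.053 (SE 0.26, limma adjusted p = 0.998). On the linear scale the order was the other way, 27.4 ± 11.3 in 2N against 26.0 ± 2.43 in Ts1Cje (SD, n = 6), since the log2 scale gives the low 2N samples more weight. A second Nfatc2 probe set (mean 5.98) differed by 0.26 (SE 0.44).

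Nfatc3 differed by −0.19 on its brighter probe set (SE 0.19, 95% interval −0.58 to 0.21), with intensities of 15.2 to 27.4 in 2N and 15.5 to 25.7 in Ts1Cje. Its array B probe set (mean 6.15) was at 0.46 (SE 0.42). Nfatc1 had a mean of 7.23 on array A and ran from 0.617 to 9.53 in 2N and from 5.65 to 10.8 in Ts1Cje. Its log2 difference of 0.28 (SE 0.45, limma adjusted p = 0.99) was −0.13 without 2N replicate 2, the sample at 0.617. No NFAT gene passed, and on the brightest probe set of each gene the interval held the 1.5-fold ratio for Nfatc1 and Nfatc2 and not for Nfatc3 and Nfatc4.

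Other genes of the pathway were taken from 6 lists of 83 genes, of which 70 were measured. Of the 70, 1 passed, beside 0.0966% of all tested probe sets on array A and 0.0645% on array B. An unadjusted limma p under 0.05 occurred in 2, or 2.86%, beside 3.63% and 4.24% over the arrays. The median log2 difference of the 70 was 0.053. The one that passed was Synj1, the phosphatase synaptojanin 1 of synaptic vesicle recycling and a calcineurin substrate, which is itself in the trisomic part. Synj1 rose from 108 ± 13.8 to 171 ± 27.2 on array B (SD, n = 6), or by 0.67 on the log2 scale (SE 0.11, adjusted p = 0.016 by limma). Its groups did not overlap, as for 0.193% of all array B probe sets in this direction. Of the array B probe sets of genes distal to Sod1, 16.2% passed.

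Among calmodulin and calcineurin-binding proteins, 8 of 13 were measured, 0 passed, 6 were above 0 and the median was 0.056. Gap43, a growth cone protein that binds calmodulin, was at 777 ± 49.8 and 782 ± 78.0 (0.00524, SE 0.071), and Fkbp1a, the FK506-binding protein, at 342 ± 12.1 and 336 ± 19.5 (−0.027, SE 0.061). Both paralogs of Rcan1 are disomic. Rcan3 differed by −0.041 (SE 0.090) and Rcan2 by 0.058 (SE 0.10), and these 2 are named after their values were seen.

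All 13 kinases listed as acting on NFAT were measured, 0 passed, 8 were above 0 and the median was 0.027. Gsk3a differed by 0.035 (SE 0.065) and Prkacb, a catalytic subunit of protein kinase A, by 0.025 (SE 0.065). The paralogs Dyrk1b, Dyrk2 and Dyrk3, named after their values were seen, were dim and differed by −0.46 (SE 0.35), 0.056 (SE 0.22) and 0.26 (SE 0.28). None of these 3 DYRK genes passed.

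For calcium entry and store release, 11 of 15 genes were measured and 0 passed, with a median of 0.11. Plcb1, a phospholipase C, differed by −0.00637 (SE 0.11) and Cacna1c, an L-type calcium channel gene, by 0.11 (SE 0.13). All 14 nuclear partners of NFAT were measured and 0 passed, with a median of 0.022. Jund differed by −0.23 (SE 0.16) and Mef2d by 0.23 (SE 0.13). Fos, an AP-1 gene that follows neuronal activity and is named after its value was seen, was at 10.2 ± 2.49 and 9.43 ± 4.12 (−0.21, SE 0.33).

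Of 12 calcineurin substrates 10 were measured, 1 passed (Synj1) and the median was 0.055. The brightest others were Mapt, which encodes tau, at 0.077 (SE 0.11), and the endocytic GTPase gene Dnm1 at 0.081 (SE 0.080). Of 16 substrates and partners of Dyrk1a 14 were measured and 0 passed, with a median of 0.11. Dcaf7, an adaptor of Dyrk1a, differed by −0.098 (SE 0.16) and the splicing factor gene Sf3b1 by −0.00613 (SE 0.11). Stat3, named after its value was seen, had the smallest p of this list, at 61.5 ± 10.8 and 77.5 ± 10.5 (0.34, SE 0.13, limma adjusted p = 0.99).

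**Figure D5:**
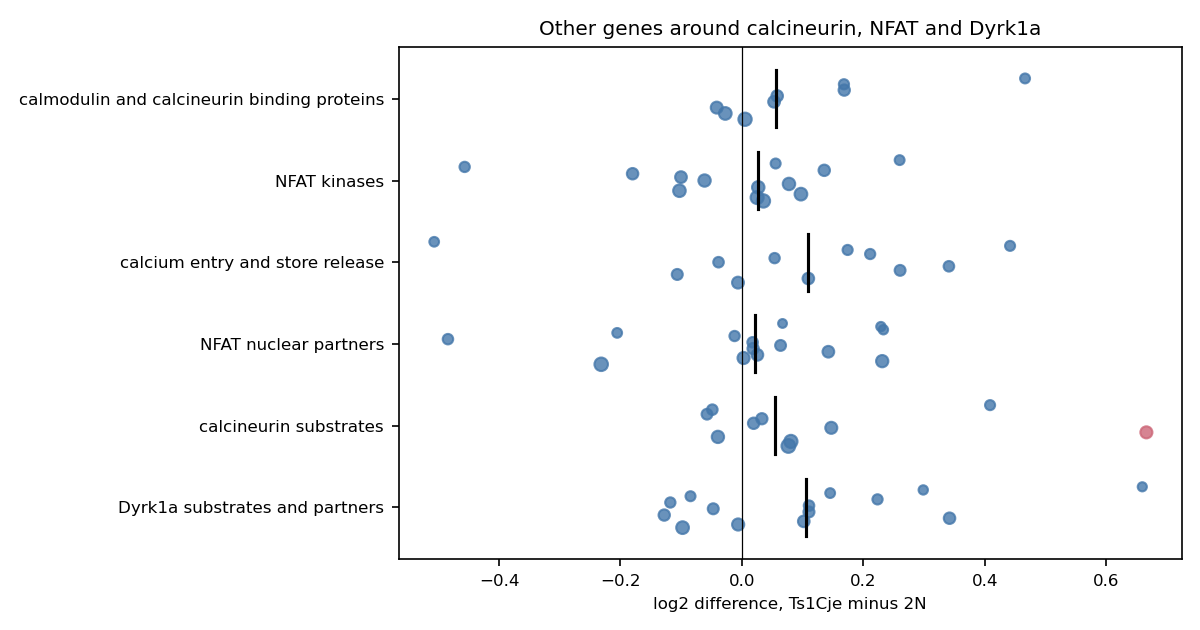
Log2 difference (Ts1Cje minus 2N) of each measured gene of 6 lists, with a black line at each list's median and larger points for brighter genes. The red point is Synj1 at 0.67, which passed, and the other points did not pass. The medians lie between 0.022 and 0.11.

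The tissue label was checked against cell markers on array A. All 6 neuronal markers were measured, and their summed intensity ran from 4469 to 5295 in 2N and from 4893 to 5713 in Ts1Cje. All 6 were above 0, with a median log2 difference of 0.058. All 4 measured oligodendrocyte markers were below 0, with a median of −0.059. The largest median log2 differences were 0.51 for 3 skeletal muscle markers (2 above 0), 0.36 for 3 of choroid plexus (all above 0), −0.19 for 5 of microglia (4 below 0) and −0.17 for 3 erythroid markers (all below 0). The summed ranges of the 2 genotypes also overlapped for astrocytes (5 of 6), oligodendrocytes (4 of 7), microglia (5 of 6), endothelium, neural progenitors, erythroid cells, choroid plexus and skeletal muscle, and 0 of these markers passed. Skeletal muscle markers were dim, with sums between 30.2 and 57.9. Their part in the Dyrk1a and Rcan1 values was not tested.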

How the data were processed

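Total brain RNA was measured on 24 arrays, 6 of each genotype on each of 2 designs that share sample numbers and may share RNA. The deposited values were intensities on a linear scale, 1 per probe set and array, and the sources used here do not give how the authors summarised and scaled them. Median deposited intensities ran from 11.2 to 21.7 on array A and 7.9 to 13.8 on array B. Because 2% trimmed means differed by 2.10-fold and 1.86-fold, each table was quantile normalised after 66 control probe sets were left out. Values were floored at the 10th percentile (1.47 and 1.13) then log2 transformed. The 9316 and 9308 probe sets whose mean reached the 25th percentile were tested with limma 3.58.1 in R 4.3.3 (lmFit, eBayes with a mean-variance trend), Ts1Cje against 2N, Benjamini-Hochberg adjusted within the table, with a threshold of 0.05. Floored folds understate changes of dim genes, and the number of arrays limits precision. Symbols came from the platform annotation.

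Exact permutation tests were two-sided. Members and lists were chosen with earlier results of these data known. All tested member probe sets are reported singly. The 6 untested ones, all of NFAT genes, are given only by their joint range, without their genotype differences. From each other list the genes that passed, or else the 2 brightest, are named, with exceptions stated, and a gene's brightest tested probe set was used, array A before B. Alternatives covered scaling, floor, filter, trend, array weights, the replicate block, subsets of replicates and each sample left out. Genes like Dyrk1a or Rcan1 were the 3 with the highest Pearson r. On simulated data with independent noise, the fit recovered 33.3% of 90 simulated 1.5-fold changes and 60% of 110 simulated 2-fold changes among 9316 on array A, with 6 false calls. On array B 31.6% of 95 and 52.4% of 105 were recovered among 9308, with 2 false calls. The data themselves had 9 calls on array A and 6 on array B. More planted changes loosen the adjusted threshold, so these shares may overstate recovery in the data.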

Additional observations from a re-analysis of the deposited data

Results flagged for a closer look

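In groups of 6, a sample was marked when its gap to the nearest other sample was too large a share of the group's range by Dixon's test at the 95% level, which chance does in about 1 group in 20. Of 38 groups of tested probe sets 2 were marked. The bright Dyrk1a probe set was at 82.8 in 2N replicate 5, above the next 2N sample at 70.8 and below the lowest Ts1Cje sample at 87.2. The brighter array B probe set of Ppp3ca was at 214 in Ts1Cje replicate 4, below the next at 257.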

How the results depend on the processing

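The number of member probe sets past the threshold on array A was 1, and it was 0 without normalisation between arrays, without the trend, among replicates 3 to 6 and among replicates 1 and 2. Over all of array A, 9 probe sets passed, and 0, 2, 6 and 0 did in these 4 settings, so without normalisation and with replicates 1 and 2 the members' 0 says nothing about them. With a sample left out the members' count ranged from 0 to 1. On array B it was 0 under each of 25 alternatives (limma), while over all of array B 6 passed, 2 without the filter, 1 among replicates 3 to 6, and 0 without normalisation, without the trend and among replicates 1 and 2. The Dyrk1a difference lost its call at 0.52 without normalisation, 0.57 without the trend, 0.60 among replicates 3 to 6, 0.51 among replicates 1 and 2 and 0.42 on the mean of its probe sets, and ranged from 0.53 to 0.62 with a sample left out, with the call lost in 8 of those 12 fits. Under the other alternatives the Dyrk1a difference kept its call. Rcan1 (0.35 to 0.51) and Ppp3ca (−0.24 to −0.053) kept their direction under the alternatives. Neither Rcan1 nor Ppp3ca was called in the main fit or under any alternative. With Ppp3cb in place of Ppp3ca the Dyrk1a ratio was 0.32 and the Rcan1 ratio 0.17, and with Ppp3r1 they were 0.52 and 0.38, and none of these passed. With a sample left out the ratios to Ppp3ca kept their calls, at 0.71 to 0.80 for Dyrk1a and 0.52 to 0.67 for Rcan1.

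Several uncalled differences changed sign, from main values between 0.011 and 0.28. Ppp3r1 was at −0.033 without normalisation and −0.042 among replicates 1 and 2, where Dyrk1a's dim probe set was at −0.14 and Nfatc2's at −0.42. Nfatc2's brightest was at −0.00325 with 16 added and −0.16 among replicates 3 to 6, where Nfatc1 was at −0.19, Ppp3cc at −0.18 and the brightest Ppp3cb probe set at −0.00946. Ppp3cc was at −0.054 with array weights. With a sample left out, the range was −0.18 to 0.19 for Nfatc2, −0.20 to 0.19 for Ppp3cc, −0.13 to 0.41 for Nfatc1, −0.00743 to 0.038 for the brightest Ppp3cb probe set and −0.024 to 0.14 for the second brightest on array B. The cause was not tested.

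With each genotype's mean subtracted, same-numbered samples of the 2 genotypes correlated by 0.017 to 0.077 on array A and 0.013 to 0.11 on array B. Their mean correlations with other numbers were −0.018 to −0.00124 on array A and −0.022 to −0.00218 on array B. Subtracting the genotype means pushes these below 0 when the same-number value is above 0, so they are not separate evidence. Of the 12, 5 correlated best with their own number. That count was not tested, and arrays A and B may share RNA. The labels do not say that the numbers pair the genotypes, and the main fit left the samples unpaired. Whether same-numbered samples share a batch was not tested. With the replicate block the count on array A was 1, with Dyrk1a at 0.57 (limma adjusted p = 0.024) and Rcan1 at 0.42 (adjusted p = 0.48).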
